A study of Mus musculus with 6 samples.

Results

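Cadherins are calcium-dependent adhesion receptors whose outer repeats pair between neighbouring cells. In classical cadherins the cytoplasmic tail binds p120-catenin and beta-catenin, and alpha-catenin links this complex to actin. In brain vessels, VE-cadherin holds endothelial cells (EC) to each other, while N-cadherin is known for the contacts between EC and mural cells, that is, pericytes and vascular smooth muscle cells. The 8 genes examined here were taken by symbol from the 33460 Ensembl genes of the deposited files and were all found. They are the type I cadherins *Cdh2* (N-cadherin) and *Cdh4* (R-cadherin), the type II cadherins *Cdh5* (VE-cadherin), *Cdh6*, *Cdh8*, *Cdh10* and *Cdh11*, and *Cdh13* (T-cadherin). The last gene is not a classical cadherin in the strict sense, since its protein is held by a GPI anchor and has no catenin-binding tail.

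The 6 libraries were made from 3 brains, taken on postnatal day 6 from mice of the cross *Pdgfrb-eGFP/NG2-DsRed*. All animals carried both transgenes, in which the *Pdgfrb* promoter drives eGFP and the *NG2* (*Cspg4*) promoter drives DsRed. Each brain was divided. One side gave FACS sorted cells positive for both reporters (mural cells, n = 3), and the other side gave microvascular fragments bound to anti-CD31 beads (fragments, n = 3). Fragments hold EC together with mural cells, so the comparison is between sorted cells and a mixture that includes them, and smooth muscle cells with weak DsRed may be missing from the sort. Values are FPKM, sequenced fragments scaled to transcript length and library depth, which allow levels to be compared between genes per length. Since these are bulk libraries, fewer cells of a type and less RNA per cell cannot be told apart.

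The labelled cell types were checked against marker genes. All 11 mural markers rose, with a summed FPKM of 328 to 506 in fragments and 3365 to 4564 in mural cells. The 12 endothelial markers summed to 2379.7 to 2784 in fragments and still to 1796 to 2325 in mural cells, with 1 of 12 called lower (*Ly6c1*) and none at 0. The 8 fibroblast markers went from 62.3 to 71.6 up to 502 to 689, with 5 of 7 tested genes called higher, 1 gene, *Dpt*, listed at 0 in 2 mural cell libraries, and *Pdgfra* and *Slc6a13* not called. The 8 microglia markers went from 1457 to 1666 down to 94.3 to 161 and were all called lower. Only genes with 1 FPKM in 3 or more libraries were tested. The microglia genes *Aif1* and *Tyrobp*, at 0 in mural cell replicate 2, passed this filter only through the fragments. The fibroblast gene *Lum*, at 0.816 in fragments 1, passed it only through the mural cells. The calls of these genes thus leaned on the group where they were high. Over all genes tested, 6.43% were called higher and 10.1% lower. Mural cell replicate 3 stood apart in glial RNA, with an astrocyte sum of 983 against 299 and 351 in the other mural cell libraries and 387 to 559 in fragments, and an oligodendrocyte progenitor sum of 157 against 49.5 and 56.0, and 44.4 to 63.5 in fragments. Most of this progenitor sum was *Ptprz1*, at 108 FPKM. *Olig1*, *Olig2*, *Gpr17* and, by little, *Pdgfra* were also highest there, whereas *Sox10* was lowest of the mural cell libraries, at 1.09 against 3.13 and 2.87 in replicates 1 and 2. No astrocyte (8), oligodendrocyte progenitor (6) or neuron gene (7 tested) was called in either direction, and the neuron sum was 23.9 to 42.7 in mural cells against 45.8 to 62.8 in fragments. The depth, estimated from genes with a single transcript, was approximately 5.45 to 5.98 M fragments on protein-coding genes in the microvascular libraries and 2.36, 1.04 and 1.05 M in mural cell replicates 1, 2 and 3.

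The 8 genes lie on 4 chromosomes of NCBIM37. *Cdh8*, *Cdh11* and *Cdh5* follow each other on chromosome 8, with gaps of 3.22 and 1.32 Mb that each hold 1 annotated protein-coding gene, and *Cdh13* lies 14.1 Mb further on. *Cdh6* and *Cdh10* are neighbours on chromosome 15, with 1 protein-coding gene in the 5.65 Mb between them. *Cdh2* and *Cdh4* each lie alone. The spans of the 8 genes run from 42.9 kb for *Cdh5* to 1041 kb for *Cdh13*.

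Promoter sequences from RefSeq (GRCm38.p6) were matched by symbol for 3 of the 8 genes, *Cdh6*, *Cdh8* and *Cdh10*. Those of *Cdh6* and *Cdh8* are shown because these type II genes stood at opposite ends of the comparison, with the highest ratio in mural cells for the former and no signal in 2 mural cell libraries for the latter. Each is the 250 bases before the annotated start, 5′ to 3′ on the gene's own strand, at chr15:13173676-13173925 (minus strand) and chr8:99416472-99416721 (minus strand). Capitals mark the letters GGGCGG (GC box), searched on both strands.
Cdh6: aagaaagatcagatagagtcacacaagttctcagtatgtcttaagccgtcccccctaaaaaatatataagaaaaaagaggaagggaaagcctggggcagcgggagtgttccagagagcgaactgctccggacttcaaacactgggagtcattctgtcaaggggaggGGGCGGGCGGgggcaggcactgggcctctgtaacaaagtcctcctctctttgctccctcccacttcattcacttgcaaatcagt
Cdh8: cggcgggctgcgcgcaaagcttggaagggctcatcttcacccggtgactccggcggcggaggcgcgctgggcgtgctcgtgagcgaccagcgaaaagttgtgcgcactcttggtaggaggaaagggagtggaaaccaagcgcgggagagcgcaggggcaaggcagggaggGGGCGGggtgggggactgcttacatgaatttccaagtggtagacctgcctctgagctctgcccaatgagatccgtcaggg
The *Cdh6* window held 2 overlapping GC boxes, whose first bases lie 84 and 80 bases before the start, and the *Cdh8* window held 1, at 80 bases. GC boxes were found in 32.7% of 32851 promoter windows of this length. A TATA box (TATAAA, either strand) was in neither window and in 12.4% of all windows. The GC content was 51.2% for *Cdh6* and 64.4% for *Cdh8*, against a median of 52.4%. The *Cdh10* window, not shown, held no GC box and no TATA box, with a GC content of 36.8%. An E-box (CANNTG) was in the windows of *Cdh6*, *Cdh8* and *Cdh10* and in 66.2% of all windows. A CCAAT box was in that of *Cdh8* alone (33.8% of all windows) and the letters CATTCC (TEAD motif) in that of *Cdh10* alone (12.6%). A link between these letters and the levels was not tested.

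Mural cells and fragments were compared to ask which cadherins are enriched in the sorted cells. The test was limma on log2(FPKM + 1), with Benjamini-Hochberg adjustment over the 14801 genes that reached 1 FPKM in 3 or more libraries. Calls required both an adjusted p below 0.05 and mean FPKM that differed by more than 2 times, a ratio above 2 or below 0.5. Of the 8 cadherins, 7 were tested, and each of these reached an FPKM of 1 in every fragment library. *Cdh6*, *Cdh11* and *Cdh4* were called higher, 3 of 7, where 6.43% of all genes tested were. None was called lower by limma, where 10.1% of all genes were, although *Cdh5* was lower at an unadjusted p under 0.05. At an adjusted p under 0.05 with any fold, 4 were higher (9.34% of all genes) and 1 was lower (13.0%). The same 4 had mural cell values that all lay above the fragment values (16.5% of all genes), and the same 1 had values that all lay below (24.5%). The median log2 fold change was 0.77 over the 7 genes and -0.12 over all genes tested. The genes were chosen with earlier results of these data known, so these counts beside the shares are not a test of the family.

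**Figure D1:**
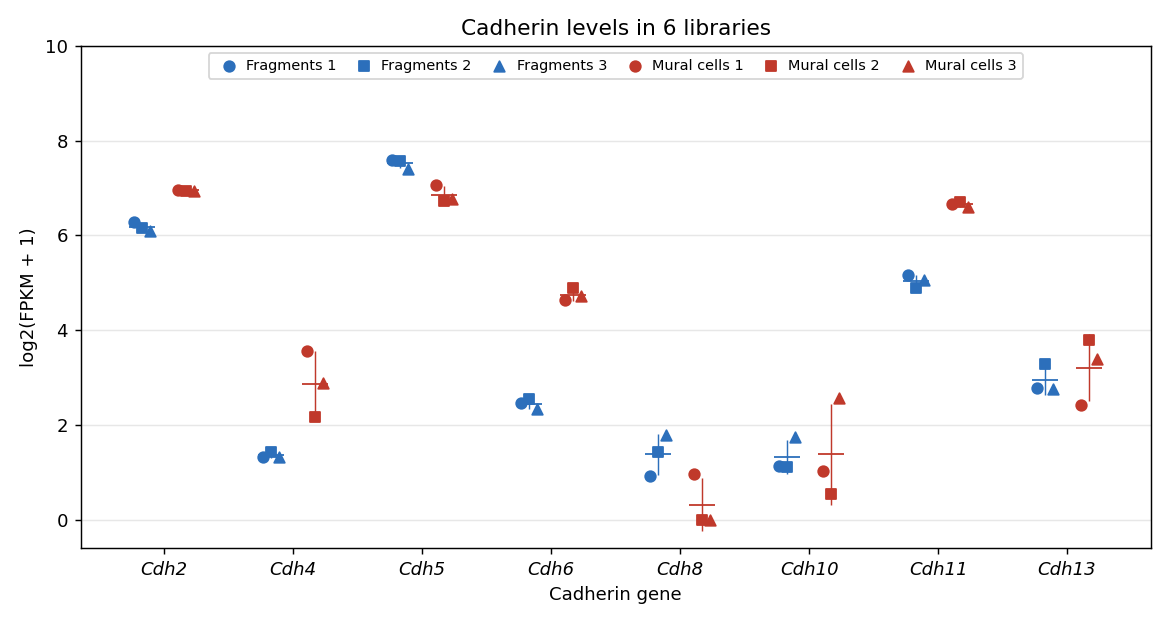
Level of each cadherin gene as log2(FPKM + 1) in the 3 fragment libraries (blue) and the 3 mural cell libraries (red), with the mean (horizontal line) and SD (vertical line) of these log values. *Cdh2*, *Cdh4*, *Cdh6* and *Cdh11* sit higher in all mural cell libraries, *Cdh5* sits lower, and the values of *Cdh8*, *Cdh10* and *Cdh13* overlap.

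*Cdh5* encodes VE-cadherin, the defining cadherin of endothelial junctions, and was the most abundant of the 8 genes in fragments. The gene (ENSMUSG00000031871) spans 106625525 to 106668402 of chromosome 8 (NCBIM37, plus strand), with 12 exons in its only annotated transcript. Its FPKM was 193, 189 and 169 in fragments 1, 2 and 3, and 133, 104 and 109 in mural cells 1, 2 and 3. All mural cell libraries were thus below all fragment libraries, yet the sorted cells still had 62.7% of the fragment level. The means were 184 ± 12.8 (SD, n = 3) in fragments and 115 ± 15.4 (SD, n = 3) in mural cells, resting on approximately 2992 to 3345 and 294 to 889 sequenced fragments. The log2 difference by limma was -0.67 ± 0.13 (standard error, adjusted p = 0.0097), short of the 2-fold limit. Without fragments replicate 1 the adjusted p was 0.051.

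The endothelial markers did not move as one. Of the 12 genes, 1 was called lower, where 10.1% of all genes tested were. At an adjusted p under 0.05 with any fold, 5 were lower, *Pecam1*, *Kdr*, *Tek*, *Ly6c1* and *Egfl7*, where 13.0% of all genes were. Another 2, *Esam* and *Emcn*, had ratios of mural cells to fragments above 1 (1.29 and 1.21) that did not pass the test. The ratios started at 0.353 and had a median of 0.746, and 10 of the 12 had a higher ratio than *Cdh5*. *Pecam1* was almost equal to *Cdh5*, with ratios of 0.629 and 0.627, and *Tek* and *Egfl7* were at 0.574 and 0.651. Per 100 FPKM of the summed endothelial markers, *Cdh5* stood at 6.90 to 7.11 FPKM in fragments and at 5.38 to 6.05 FPKM in mural cells. Its level was thus lower in mural cells also relative to this sum, a difference that was not put to a test. The largest part of the sum was *Cldn5*, with means of 602 and 489 FPKM and a ratio of 0.811, so the measure does not set *Cdh5* apart from each marker. The part of endothelial RNA in the *Cdh5* signal of the sorted libraries was not tested.

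*Cdh2* encodes N-cadherin, which joins pericytes to EC and is also used widely by neural cells. It lies on chromosome 18 from 16747386 to 16967755 on the minus strand (ENSMUSG00000024304). Its FPKM was 76.7, 70.6 and 67.6 in fragments 1, 2 and 3, and 124, 122 and 122 in mural cells 1, 2 and 3. The sorted cells were higher in every library, and their values were the most even of the 8 genes. The means were 71.6 ± 4.64 and 123 ± 1.40 (SD, n = 3 each), a ratio of 1.71. In limma this was a log2 difference of 0.77 ± 0.10 (standard error, adjusted p = 0.0019). This passed the condition on p but not the 2-fold limit. In mural cells only 3.32% of the genes tested had a higher mean FPKM than *Cdh2*.

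*Cdh11* encodes a type II cadherin of mesenchymal cells, also called OB-cadherin. It lies on chromosome 8 from 105156895 to 105309011 on the minus strand (ENSMUSG00000031673). Its FPKM was 34.6, 28.7 and 32.5 in fragments 1, 2 and 3, and 100.02, 104 and 95.7 in mural cells 1, 2 and 3. The groups were far apart compared with their spread, with means of 32.0 ± 3.02 and 99.9 ± 4.16 (SD, n = 3 each) and a ratio of 3.13. The limma estimate was a log2 difference of 1.62 ± 0.12 (standard error, adjusted p = 1.8e-04), on approximately 489 to 638 sequenced fragments in the microvascular libraries and 303 to 710 in mural cells. *Cdh11* rose on the same stretch of chromosome 8 where *Cdh5*, 1.32 Mb away, was lower.

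*Cdh6*, a type II cadherin also called K-cadherin, had the highest ratio of the 8 genes. It lies on chromosome 15 from 12963955 to 13103394 on the minus strand (ENSMUSG00000039385). Its FPKM was 4.50, 4.86 and 4.06 in fragments 1, 2 and 3, and 23.9, 28.7 and 25.6 in mural cells 1, 2 and 3. The lowest mural cell library was well above the highest fragment library. The means were 4.47 ± 0.397 and 26.1 ± 2.46 (SD, n = 3 each), a ratio of 5.83. The log2 difference by limma was 2.30 ± 0.18 (standard error, adjusted p = 2.4e-04). The values rest on approximately 46 to 50 sequenced fragments in the microvascular libraries and 49 to 103 in mural cells.

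*Cdh4*, which encodes R-cadherin, a close relative of N-cadherin, was the third gene called higher and the least even. It lies on chromosome 2 from 179177136 to 179634078 on the plus strand (ENSMUSG00000000305). Its FPKM was 1.52, 1.69 and 1.49 in fragments 1, 2 and 3, and 10.8, 3.47 and 6.37 in mural cells 1, 2 and 3. Every mural cell library was higher, but replicate 1 had about 3 times the level of replicate 2. The means were 1.57 ± 0.105 and 6.89 ± 3.70 (SD, n = 3 each), a ratio of 4.40. By limma this gave a log2 difference of 1.51 ± 0.38 (standard error, adjusted p = 0.028). The call was lost when mural cell replicate 3 (adjusted p = 0.056) or any of the fragment libraries 1, 2 and 3 was left out (adjusted p = 0.097, 0.086 and 0.10), and with no filter on low values (adjusted p = 0.056). It was also lost at a limit of 0.01 on the adjusted p, and with a filter at an FPKM of 5, where *Cdh4* was not tested.

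None of the 3 genes that rose reached the ratios of the mural markers, which ran from 6.47 for *Cspg4* to 12.5. All 11 mural markers had a higher ratio than *Cdh6*, *Cdh11*, *Cdh4* and *Cdh2*. Per 100 FPKM of the summed mural markers, *Cdh6* stood at 0.889 to 1.24 FPKM in fragments and 0.629 to 0.710 FPKM in mural cells, *Cdh11* at 5.90 to 9.92 and 2.28 to 2.97 FPKM, and *Cdh2* at 14.5 to 20.6 and 2.67 to 3.69 FPKM. *Cdh4* stood at 0.300 to 0.456 FPKM in fragments and 0.0761 to 0.322 FPKM in mural cells, and was the only one of these 4 genes whose groups overlapped on this measure. The fibroblast markers had ratios from 1.59 to 12.9, and *Col1a1*, *Col1a2* and *Col3a1*, which encode fibrillar collagen chains, were among those that rose. The part of fibroblast RNA in the values of *Cdh11*, *Cdh6* and *Cdh4* was not tested.

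The other 3 cadherins had low values, as *Cdh4* did. The mean FPKM of *Cdh13* was 6.81 in fragments and 8.95 in mural cells, above that of *Cdh4* in both groups (1.57 and 6.89). *Cdh13*, which encodes the GPI-anchored T-cadherin, had an FPKM of 5.84, 8.81 and 5.77 in fragments 1, 2 and 3, and 4.40, 13.0 and 9.50 in mural cells 1, 2 and 3. Mural cell replicate 1 was below all fragments and replicates 2 and 3 were above them, so the groups overlapped (limma, log2 difference 0.27 ± 0.38 standard error, adjusted p = 0.67).

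*Cdh10*, a type II cadherin of neural tissue and of brain EC, had an FPKM of 1.20, 1.16 and 2.34 in fragments 1, 2 and 3, and 1.04, 0.451 and 4.98 in mural cells 1, 2 and 3. These mural cell values stand for approximately 6, 1 and 13 sequenced fragments. The high value was in mural cell replicate 3, where the astrocyte and oligodendrocyte progenitor sums were also highest. The part of glial RNA in this value was not tested. By limma the log2 difference was 0.05 ± 0.54 (standard error, adjusted p = 0.96) with all libraries and -0.55 (adjusted p = 0.32) without that library.

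*Cdh8*, a type II cadherin of neurons, had an FPKM of 0.886, 1.69 and 2.46 in fragments 1, 2 and 3 and of 0.945 in mural cell replicate 1, and was listed at 0 in mural cell replicates 2 and 3. It did not pass the filter. The value in replicate 1 stands for approximately 7 sequenced fragments. At the depth of replicates 2 and 3, the limit that a count of 0 allows, 3 fragments, corresponds to an FPKM of approximately 0.918 and 0.866, about the level of fragments replicate 1, so that a decrease to 0 cannot be told from a low level. With no filter, over 21143 genes, limma gave a log2 difference of -1.06 ± 0.37 (standard error, adjusted p = 0.11).

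The order of the 8 genes by mean FPKM changed between the groups. In fragments it was *Cdh5*, *Cdh2*, *Cdh11*, *Cdh13*, *Cdh6*, *Cdh8*, *Cdh10* and *Cdh4*, and each of the first 5 was separate from the next in every library, whereas *Cdh8*, *Cdh10* and *Cdh4* overlapped. In mural cells it was *Cdh2*, *Cdh5*, *Cdh11*, *Cdh6*, *Cdh13*, *Cdh4*, *Cdh10* and *Cdh8*. Here *Cdh2* and *Cdh5* overlapped, *Cdh5*, *Cdh11*, *Cdh6* and *Cdh13* were separate from one to the next, and each gene from *Cdh13* on overlapped with the next. *Cdh5* and *Cdh11* were practically equal in mural cell replicate 2, at 104.33 and 104.05 FPKM. In that library 1 sequenced fragment of *Cdh5* is worth approximately 0.355 FPKM.

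As a measure that no scaling between libraries can change, each gene was expressed as a share of the summed FPKM of the 8 genes in its library. These sums were 318, 307 and 285 in fragments 1, 2 and 3 and 398, 376 and 373 in mural cells 1, 2 and 3. *Cdh5* made up 60.6, 61.7 and 59.3% of the sum in fragments and 33.4, 27.8 and 29.1% in mural cells, a difference of -30.4 percentage points. *Cdh2* went from 23.6 ± 0.572% to 32.1 ± 0.797%, *Cdh11* from 10.5 ± 1.07% to 26.2 ± 1.35% and *Cdh6* from 1.47 ± 0.0942% to 6.83 ± 0.823% (SD, n = 3 each). *Cdh4* went from 0.517 ± 0.0367% to 1.78 ± 0.899%, *Cdh8* from 0.564 ± 0.292% to 0.0791 ± 0.137%, whereas *Cdh10* and *Cdh13* overlapped between the groups. For *Cdh5*, *Cdh2*, *Cdh11*, *Cdh6*, *Cdh4* and *Cdh8* the groups did not overlap (p = 0.1 for each by exact two-sided permutation, the lowest that 3 against 3 can give, and p = 1 for *Cdh10* and *Cdh13*). Shares add up to the whole, so that a lower share of *Cdh5* raises the others.

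**Figure D2:**
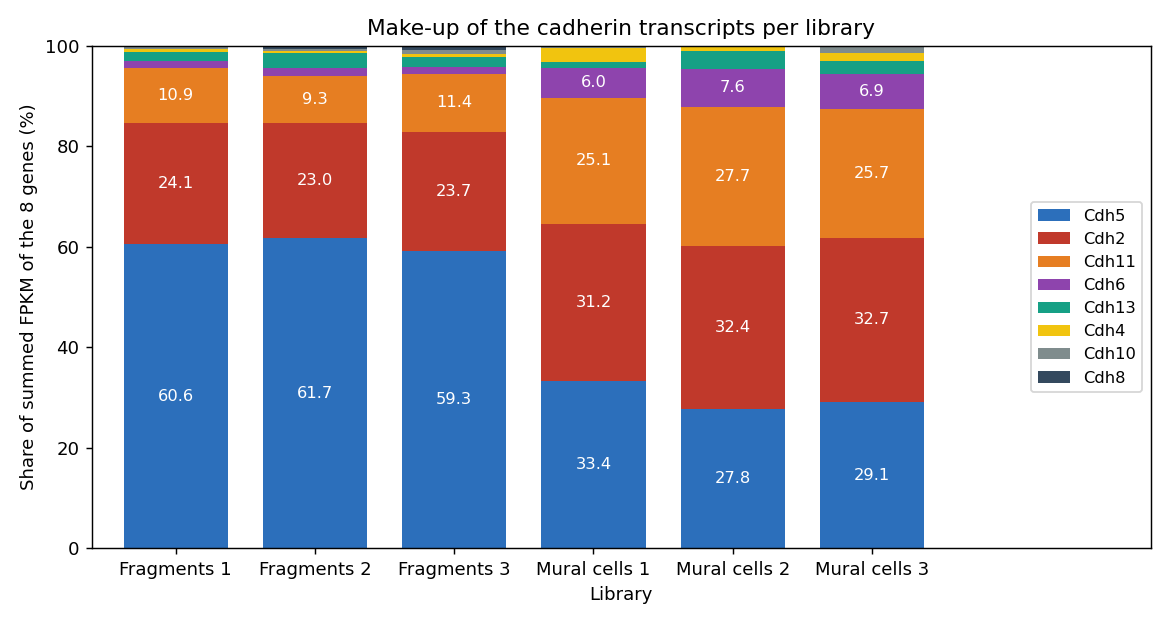
Share of each gene in the summed FPKM of the 8 cadherins (stacked bars, percent) for each library, with shares above 4% printed. *Cdh5* takes 59.3 to 61.7% in the fragment libraries and 27.8 to 33.4% in the mural cell libraries, where *Cdh2*, *Cdh11* and *Cdh6* take more.

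The balance between N-cadherin and VE-cadherin was then computed within each library. The FPKM of *Cdh2* was 0.398, 0.372 and 0.400 times that of *Cdh5* in fragments 1, 2 and 3, and 0.935, 1.17 and 1.12 times in mural cells 1, 2 and 3. On the log2 scale the difference was 1.46, with an SD between libraries of 0.17 in mural cells and 0.06 in fragments, which is a 2.74-fold shift. For *Cdh11* the ratio to *Cdh5* was 0.180, 0.151 and 0.192 in fragments and 0.753, 0.997 and 0.882 in mural cells, a difference of 2.33 on the log2 scale or 5.02-fold. In both cases the groups did not overlap (p = 0.1 by exact two-sided permutation, again the lowest possible).

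**Figure D3:**
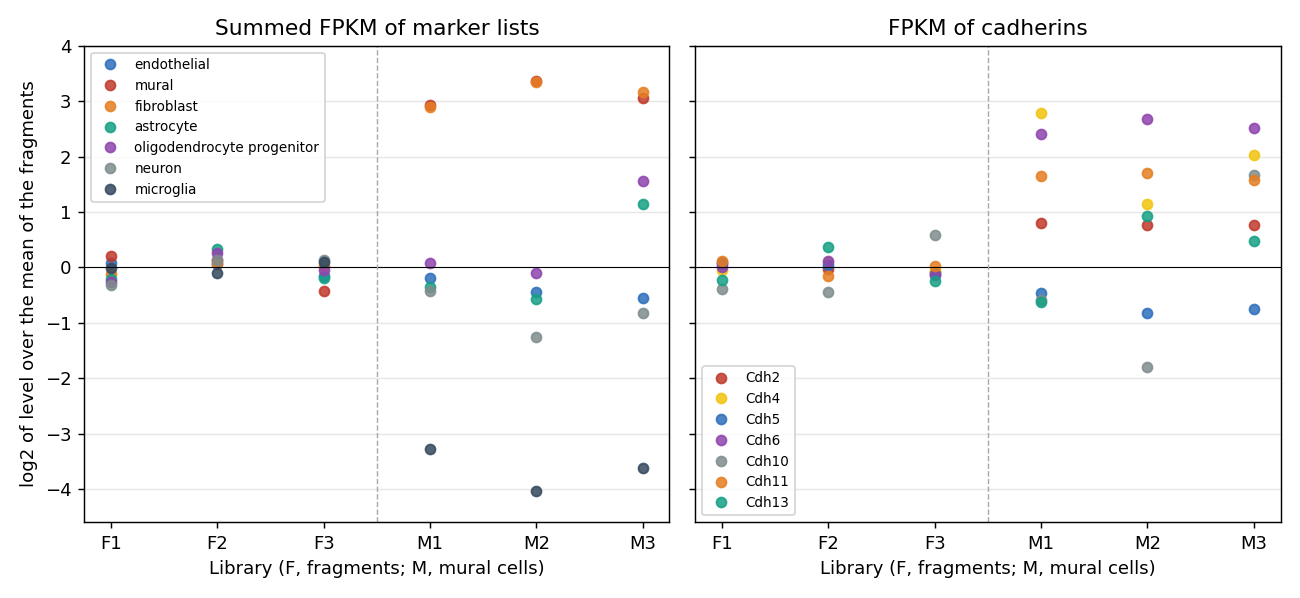
Summed FPKM of each marker list (left) and FPKM of 7 cadherins (right) in each library, as log2 of the level over the mean of the 3 fragment libraries. *Cdh8* is left out because it is listed at 0 in 2 libraries. In mural cell replicate 3 (M3) the astrocyte and oligodendrocyte progenitor sums (983 and 157) and *Cdh10* (FPKM 4.98) are all at their highest.

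The cytoplasmic partners were examined with a list of 36 genes of the adherens junction, all of which were tested. Of these, 5 rose (6.43% of all genes did) and 3 fell (10.1%), and the median log2 fold change was 0.09 against -0.12 for all genes. Among the 9 catenin genes 2 rose, 1 fell and 6 were not called. The core catenins had high levels in both groups, and none was called. *Ctnnb1* (beta-catenin, which binds the cadherin tail) had an FPKM of 277 ± 14.2 in fragments and 318 ± 29.0 in mural cells (SD, n = 3 each, adjusted p = 0.28 from limma). *Ctnnd1* (p120-catenin, which holds cadherins at the membrane) had 103 ± 4.35 and 105 ± 5.74 (adjusted p = 0.88), and *Ctnna1* (alpha-catenin) had 95.4 ± 11.2 and 118 ± 13.0 (adjusted p = 0.16). *Jup* (plakoglobin) had 84.2 ± 11.5 and 91.9 ± 6.13 (adjusted p = 0.53). For *Ctnnb1* the lowest mural cell value, 294, lay just above the highest fragment value, 293. The groups of *Ctnna1* did not overlap either (106 and 103). Mural cell values all lay above the fragment values in 16.5% of all genes tested.

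The catenin genes that changed were less abundant than these 4. *Ctnna3*, which encodes alpha-T-catenin, a form best known from heart muscle, had an FPKM of 1.58, 2.08 and 0.95 in fragments and 6.10, 13.5 and 14.2 in mural cells. It was lowest in mural cell replicate 1, and its ratio was 7.33 (limma, log2 difference 2.22 ± 0.37 standard error, adjusted p = 0.0053). With fragments replicate 3 below 1 FPKM, *Ctnna3* passed the filter only with the help of the mural cell libraries. Its call, 1 of the 5 counted as rising above, thus leaned on the group where it was high. *Arvcf*, a relative of p120-catenin, had 21.8, 14.4 and 10.8 in fragments and 48.1, 46.3 and 30.9 in mural cells, with a ratio of 2.67 (adjusted p = 0.012). *Pkp4*, another relative of p120-catenin, fell from 80.5 ± 2.75 to 38.4 ± 2.50 (SD, n = 3 each), with a ratio of 0.478 (adjusted p = 7.0e-04).

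Of the 9 genes that link the complex to actin, 2 rose and 7 were not called, where 6.43% of all genes tested rose and 10.1% fell. *Vcl* (vinculin, which binds alpha-catenin under tension) had an FPKM of 54.6, 43.7 and 40.6 in fragments and 172, 198 and 170.0 in mural cells, a ratio of 3.89 (limma, log2 difference 1.94 ± 0.14 standard error, adjusted p = 1.9e-04). *Actn1* (alpha-actinin-1) had a ratio of 2.39 (adjusted p = 0.0024). *Actn4* and *Vasp* were higher at adjusted p = 0.014 each but had ratios of 1.58 and 1.55. *Mllt4*, the gene of afadin, which ties nectins to actin, had a ratio of 0.647 with overlapping groups (adjusted p = 0.14), and *Tjp1*, the gene of the scaffold ZO-1, had a ratio of 1.09 (adjusted p = 0.49).

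Nectins are immunoglobulin-type receptors at the same junctions. Of the 5 genes of this list only *Pvrl4* (nectin-4) was called, as lower, where 10.1% of all genes tested were. It had an FPKM of 3.09, 4.23 and 3.83 in fragments and was listed at 0 in every mural cell library (adjusted p = 0.0013 from limma). It passed the filter through the fragment libraries alone, so that its call, 1 of the 3 counted as lower above, could go only this way. At the depth of mural cells 1, 2 and 3, a count of 0 allows approximately 0.494, 1.17 and 1.11 FPKM (3 fragments). *Pvrl1* (nectin-1) had a ratio of 1.89 (adjusted p = 0.016), below the 2-fold limit. The ratios of *Pvrl3*, *Pvrl2* and *Pvr* were 1.57, 1.08 and 0.864 (adjusted p = 0.054, 0.79 and 0.56).

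Of 13 proteases, phosphatases and kinases that act on cadherins, 1 rose and 1 fell, which is near the shares over all genes tested (6.43% and 10.1%). *Mmp14*, a membrane-bound metalloproteinase, had an FPKM of 43.3, 44.7 and 39.1 in fragments and 119, 136 and 129.7 in mural cells, a ratio of 3.03 (adjusted p = 1.7e-04 from limma). *Ptprj*, a receptor phosphatase, fell to a ratio of 0.285 (adjusted p = 3.0e-04). *Ptprb*, the gene of the phosphatase VE-PTP that binds VE-cadherin, had a ratio of 0.560 (188 ± 25.9 against 105 ± 19.0 FPKM, SD, n = 3 each, adjusted p = 0.013), near the 0.627 of *Cdh5*. *Adam10*, the main sheddase of N-cadherin, had 118 ± 0.650 and 99.8 ± 13.6 (adjusted p = 0.21). *Adam15*, another metalloprotease, and *Fyn*, a kinase of the Src family, had ratios of 0.544 and 1.39 (adjusted p = 0.0091 and 0.042), short of the 2-fold limit.

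**Figure D4:**
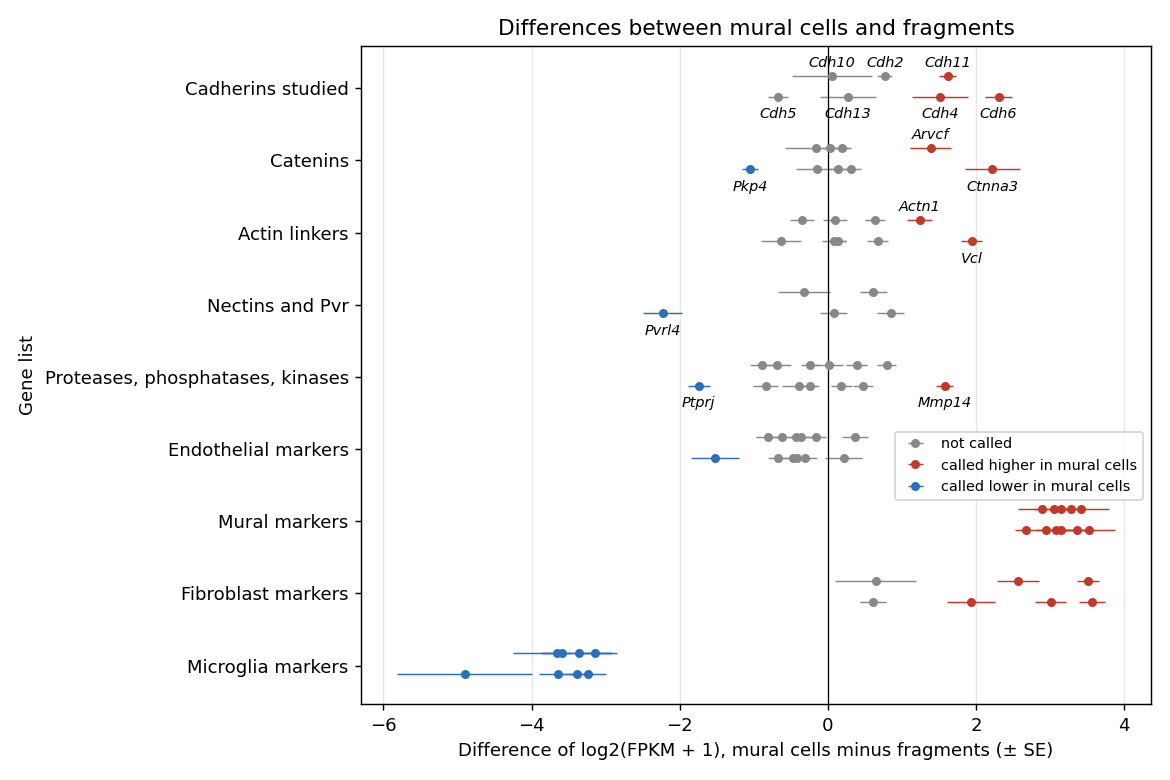
Log2 fold change on the log2(FPKM + 1) scale (mural cells minus fragments, horizontal axis, bars for the standard error) of each tested gene in the cadherin, junction and marker lists, coloured by call. *Cdh6*, *Cdh11* and *Cdh4* lie at 2.30, 1.62 and 1.51, below the mural markers and among the junction genes *Ctnna3*, *Vcl* and *Mmp14*.

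The remaining 15 cadherin genes examined were low. Only *Cdh3*, *Cdh24* and *Cdh23* were tested, and none of the 15 was called higher, where 6.43% of all genes tested were. *Cdh23* was called lower, where 10.1% of all genes tested were. *Cdh23*, known from hair cell tip links, fell, with an FPKM of 6.27, 6.95 and 5.13 in fragments and 1.25, 0 and 0.126 in mural cells (limma, log2 difference -2.38 ± 0.37 standard error, adjusted p = 0.0040). These mural cell values stand for approximately 23, 0 and 1 sequenced fragments. Among them only replicate 1 reached an FPKM of 1, so *Cdh23* passed the filter through the fragment libraries and its call could go only this way. Microglia markers fell along with *Cdh23*, and their part in its value was not tested. *Cdh24* had 2.86 ± 0.583 and 4.56 ± 0.330 (SD, n = 3 each, adjusted p = 0.18 from limma). Its mural cell values all lay above the fragment values, as in 16.5% of all genes tested. *Cdh3* had 1.45 ± 0.815 and 1.13 ± 0.861 (adjusted p = 0.73). *Cdh20* was not tested and, like *Cdh10*, peaked in mural cell replicate 3, where its FPKM was 5.33 while replicates 1 and 2 had 0.591 and 0.705. *Cdh1* (E-cadherin) stayed at an FPKM of 1.91 or less in every library.

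Genes with the most similar pattern were sought among the protein-coding genes tested, by the root mean square difference of the gene-centred log2(FPKM + 1) values over the 6 libraries. The closest to *Cdh5* were *Ocln* (0.0509), which encodes the tight junction protein occludin, *Ercc6* (0.0551) and *Tshz2* (0.0577). The closest to *Cdh11* were *Ror1* (0.0599), a receptor of the Wnt family of signals, *Tnfrsf21* (0.0781) and *Tnks1bp1* (0.0995). For *Cdh6* they were *Pde5a* (0.0698), the cGMP phosphodiesterase of smooth muscle, *Adra1b* (0.0864), an adrenergic receptor, and *Ntn1* (0.0913), a netrin. For *Cdh4* they were *Ppara* (0.143), *Otud7a* (0.207) and *Gfra1* (0.210), a looser likeness.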

How the data were processed

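RNA-seq values of 6 libraries were used. Per the labels and the study's methods, the deposited FPKM were computed by the authors with Cufflinks 2.2.1, after alignment by TopHat2 2.0.4 to NCBIM37 and removal of duplicates by Picard 1.92. Removing duplicates can lower abundant genes, and FPKM of genes with several transcripts depend on the isoform model. The scaling between libraries is not given in the sources used here. Of 9 identifiers listed repeatedly with equal values 1 line was kept, and symbols came from the GENCODE annotation of NCBIM37 (33116 of 33460 genes). FPKM are not counts, so limma 3.58.1 (R 4.3.3, intensity trend) was run on log2(FPKM + 1), which understates the change of low genes. It was tested on simulated data. Sequenced fragments were estimated from the step between low values of single-transcript genes (96.2 to 98.2% whole within 0.05), using the longest transcript of each gene, and are approximate. They and the limits from them cover counting error only. The libraries of a group came from 3 brains, and p-values measure the spread between these 3 samples. Genes were named by rule: the 8 cadherins, list members that were called and otherwise up to 4 with the highest mean FPKM per list, and the 3 most alike genes. *Cdh1* and *Cdh20* fall under the same rule. The members and lists were chosen with earlier results of these data known. Python 3.11.15 with pandas 2.3.3, NumPy 2.4.6 and SciPy 1.17.1 was used. Alternatives were a pseudocount of 0.1, median-ratio and quantile scaling, the replicate block, no trend, other filters, an adjusted p under 0.01, the fold change of limma, protein-coding genes only and each library left out.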

Additional observations from a re-analysis of the deposited data

How the results depend on the processing

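The number of cadherins called higher was 2 or 3 of the 8 genes, and the number called lower was 0, under all 16 alternatives, with *Cdh6* and *Cdh11* at an adjusted p of at most 0.0018 and 0.0015 (limma). Genes not tested under a setting counted as not called. *Cdh8* was tested only with no filter, so its absence from the calls elsewhere was fixed in advance. *Cdh4* and *Cdh10* were not tested with a filter at an FPKM of 5. The number of all genes called lower, 1493, was 948 with a filter at an FPKM of 5, 845 at an adjusted p under 0.01 and between 607 and 1733 with one library left out. It was 654, 702 and 607 without fragments replicates 1, 2 and 3, and fewer genes were then tested. Genes called higher, 952, ranged from 667 to 1212. With one library left out, they were between 691 and 949. The change of *Cdh10* turned to -0.11 with a pseudocount of 0.1, and lay between -0.55 and 0.47 with one library left out, and that of *Cdh13* lay between -0.030 and 0.66, the former without mural cell replicate 2. The cause was not tested. Quantile normalization moved the median log2 fold change of all genes from -0.12 to 0.01, and that of *Cdh5* and *Cdh2* was -0.74 and 0.68 there, so that they kept their direction relative to it. The share of *Cdh5* stayed between 29.3 and 32.1 percentage points lower and the log2 ratios to *Cdh5* between 1.39 and 1.55 for *Cdh2* and 2.23 and 2.43 for *Cdh11* under their alternatives.

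The labels number the libraries 1 to 3 in both groups, but nothing says that a number marks a brain. Deviations from the group means correlated at r = 0.08, 0.02 and 0.05 for same-numbered libraries, and each mural cell library correlated best with its own number. With the replicate block, 900 genes were higher and 1344 lower, and 3 and 0 of the cadherins. The low depth of mural cell replicates 2 and 3 limits what can be said of *Cdh8*, *Cdh10* and *Cdh4*.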
